A study of Mus musculus with 12 samples.

Results

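Rag1 and Rag2 encode the subunits of the recombinase that cuts antigen receptor genes, and Dntt encodes terminal deoxynucleotidyl transferase, which adds bases to the cut ends before they are joined. The 3 genes were chosen by name, each through the probe group (transcript cluster) that carries its symbol alone and has the highest mean log2 intensity over all arrays. Of the 3 genes, 2 had such a cluster, Rag2 (cluster 6879484) and Dntt (cluster 6869691), out of 15223 gene symbols measured in this way. Rag1 shares its only cluster with a second symbol, Iftap, so signal of either gene would be read there, and Rag1 was not analysed here.

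Expression was measured in thymic tumor and whole thymus of female mice of the Sdl model on Mouse Exon 1.0 ST arrays, with 4 pools of 3 organs in each group and 1 array per pool. Thymic tumors came from moribund mice heterozygous for D573H, a substitution in Mcm4, which encodes part of the replicative helicase. Pre-leukemic thymus came from mice of that genotype, Mcm4 (D573H/+), at 21 days of age, and wild-type thymus from Mcm4 (+/+) mice, also at 21 days. Tumor therefore differs from wild type in disease, genotype and age, and from pre-leukemic thymus in disease and age, and these cannot be told apart. No detection calls were used here, and levels are log2 of the deposited normalized intensity. In whole organs, fewer cells of a type and less RNA per cell cannot be told apart. Levels of different clusters are not set against each other, because each has its own probes.

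Recombination in the thymus runs first at the T-cell receptor beta locus in double-negative thymocytes, which lack CD4 and CD8. It runs again at the alpha locus in double-positive thymocytes, which make up most of the normal cortex. Rag genes are on at both stages and are shut off once a receptor has been selected. Breaks made by the recombinase are repaired by non-homologous end joining, and terminal transferase works on the ends while the Ku and ligase proteins hold them.

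Arrays of a group correlated at 0.983 to 0.996 across clusters, their median intensities lay between 186 and 210, and no pair held identical values. Genes of the T lineage as a whole were present in every group. The summed intensity of 9 T-lineage genes was 30128 to 31912 in tumors and 34043 to 35784 in wild-type thymus. Markers of other cell types differed between the groups. For the counts that follow, 16.2% of all clusters were called higher and 14.5% lower in tumor against wild type. Of the cortical epithelial genes, 10 of 10 were called lower in tumors, with summed intensities of 1565 to 2164 in tumors and 24425 to 28086 in wild-type thymus. Of the 7 measured B-cell genes 5 were called lower and 2 were not called, with summed intensities of 977 to 1197 in tumors and 1951 to 2464 in wild-type thymus. All 7 fat genes were also called lower, at 800 to 1885 in tumors and 6977 to 11203 in wild-type thymus. Macrophage and dendritic genes did not share this direction: of 9 measured, 2 were called higher and 1 lower, with summed intensities of 4391 to 9107 in tumors and 4781 to 5525 in wild-type thymus. Of 7 fibroblast genes 1 was called higher and 3 lower, and of 6 mature T-cell genes 2 were called higher and 2 lower. The part of these other cell types in the results below was not tested. Mcm4 itself does not check the labels, since its change is a substitution and not a loss. It averaged 11.03 in tumors and 10.72 in wild-type thymus, a difference of 0.30 ± 0.08 (SE, limma adjusted p = 0.0183) whose call was lost when wild-type replicate 2 or replicate 3 was left out.

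Rag2, the regulatory subunit that reads histone marks at recombining loci, was far lower in the tumors. Its log2 intensity was 6.92, 7.61, 7.47 and 7.77 in the 4 tumor pools. It was 9.10, 8.85, 9.70 and 9.45 in pre-leukemic thymus and 9.61, 9.77, 9.36 and 9.52 in wild-type thymus. Every tumor pool lay below every pool of both other groups, and the pre-leukemic and wild-type pools overlapped. On the linear scale the tumors ran from 121 to 219, pre-leukemic thymus from 462 to 833 and wild-type thymus from 659 to 874. Group means were 7.44 ± 0.37 in tumor, 9.28 ± 0.37 in pre-leukemic thymus and 9.57 ± 0.17 in wild-type thymus (SD, n = 4 each). Tumor 1 was the lowest of all 12 arrays. The tumor values sit just above a rough guide to background: clusters of 751 olfactory receptor genes had a median of 4.71 and a 95th percentile of 6.84.

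Dntt was lower in the tumors too, by a smaller estimate, and the test of unequal change given below did not pass its adjusted threshold. Its log2 intensity was 11.32, 11.28, 11.46 and 10.87 in tumors. It was 11.90, 12.06, 12.11 and 12.17 in pre-leukemic thymus and 11.95, 11.92, 12.003 and 11.99 in wild-type thymus. All 4 tumors lay below all other pools, and tumor 4 was the lowest. Group means were 11.23 ± 0.26 in tumor, 12.06 ± 0.11 in pre-leukemic thymus and 11.97 ± 0.04 in wild-type thymus (SD, n = 4 each). The tumors therefore still gave 1868 to 2823 units of intensity at the Dntt cluster, against 3877 to 4103 in wild-type thymus. The wild-type pools hardly differed from each other: 10.03% of all clusters had a smaller SD over them, whereas 74.95% had a smaller SD than Dntt over the tumors. Rag2 varied more than most clusters in every group, with 90.9% of clusters at a smaller SD in tumors, 91.2% in pre-leukemic thymus and 82.4% in wild-type thymus.

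**Figure D1:**
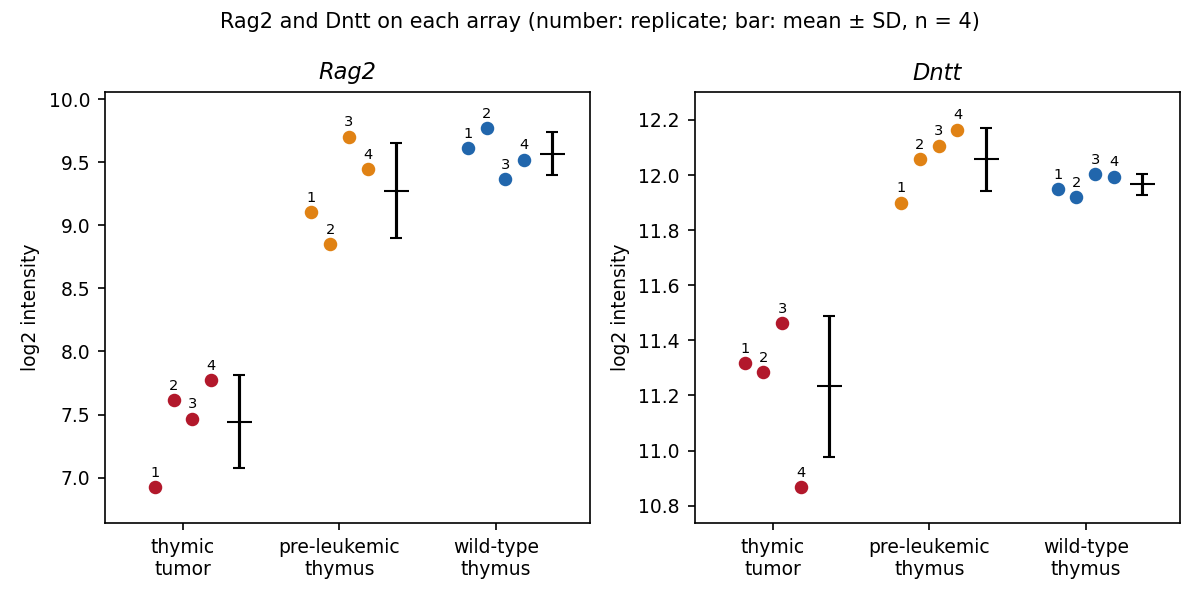
Log2 intensity of Rag2 (left) and Dntt (right) on each of the 12 arrays, grouped as thymic tumor, pre-leukemic thymus and wild-type thymus; points are pools with their replicate number, bars are the mean ± SD of 4 pools, and the vertical axes differ between panels and do not start at 0. All 4 tumors lie below the other 8 arrays for both genes, and the pre-leukemic pools overlap the wild-type pools.

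The series' design names tumor against wild type as one of its comparisons. Both measured genes were called lower at an adjusted p under 0.05 in limma, against 14.5% of all 17829 clusters called lower, and both had groups that did not overlap, against 15.7% of clusters separate in that direction. Rag2 differed by -2.12 ± 0.17 (SE, 95% interval -2.52 to -1.73), which is 4.35-fold lower, with limma adjusted p = 5.11e-05. Only 87 clusters, 0.488% of all, had a larger fall. Dntt differed by -0.73 ± 0.12 (interval -1.004 to -0.46), 1.66-fold lower, with limma adjusted p = 0.00177, and 1006 clusters (5.64%) had a larger fall. The series' design also asks for a posterior probability over 95%. By limma's B statistic, with its preset share of changed clusters, Rag2 reached 99.9% and Dntt 68.8%. By this statistic Dntt passed the adjusted p but not that added limit. The percentages depend on the preset share, which was not estimated from these data, and may differ from the authors' measure. Over all clusters the median difference was 0.07.

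Against pre-leukemic thymus, which shares the tumors' genotype, both genes were again called lower, where 8.27% of all clusters were called lower and 10.2% were separate in that direction. Rag2 differed by -1.83 ± 0.22 (interval -2.33 to -1.33), 3.56-fold lower, with limma adjusted p = 8.49e-04. Dntt differed by -0.82 ± 0.13 (interval -1.12 to -0.52), 1.77-fold lower, with limma adjusted p = 0.00360. Both comparisons use the same tumor arrays. The posterior probability, with the same preset share of changed clusters, was 97.2% for Rag2 and 76.4% for Dntt. When the 4 arrays with the narrowest range of values were left out, the Dntt difference was -1.04 and its limma adjusted p was 0.0512, so the call was lost there. These were tumors 2 and 3 and pre-leukemic replicates 1 and 2, which leaves 2 arrays in each group. Clusters called fell from 2855 to 853 in that fit, and the Dntt difference was larger than with all arrays. This alternative was chosen after seeing the data.

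Before disease, at 21 days, neither gene differed detectably between the genotypes. Rag2 differed by -0.29 ± 0.18 in pre-leukemic against wild-type thymus (interval -0.69 to 0.11, limma adjusted p = 0.770), and Dntt by 0.09 ± 0.07 (interval -0.07 to 0.25, limma adjusted p = 0.784). No cluster at all was called in this comparison (0% of 17829), although 1112 clusters (6.24%) had an unadjusted p under 0.05. The intervals leave room for a Rag2 level up to 0.69 lower on the log2 scale. Rag2 was lowest in pre-leukemic replicates 1 and 2, and these are 2 of the 4 arrays with the narrowest range. Only these 2 of the narrow arrays belong to this comparison, and without them the difference was 0.0074. Leaving out the 2 lowest pre-leukemic values fixed the direction of that shift. This alternative was chosen after seeing the data, and a part of the array range in the Rag2 values was not tested.

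Scaling each array to the 9 T-lineage genes moved the median of all clusters up by 0.20 in tumor against wild type, and left both calls in place. As deposited, 5 of these 9 genes were themselves called lower and 1 higher in that comparison, so they are not a fixed reference. On that scale Rag2 differed by -1.92 ± 0.18 (limma adjusted p = 8.38e-05) and Dntt by -0.53 ± 0.11 (limma adjusted p = 0.00485). Against pre-leukemic thymus the values were -1.73 for Rag2 and -0.72 for Dntt, with limma adjusted p of 9.14e-04 and 0.00666.

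Whether Rag2 changed more than Dntt was asked from the difference between them on each array, with an exact two-sided permutation test. Dntt minus Rag2 was 3.79 ± 0.55 in tumors and 2.40 ± 0.21 in wild-type thymus (SD, n = 4 each), a gap wider by 1.39 (exact p = 0.0286, the smallest that 4 against 4 allows, and 0.0857 after adjustment over the 3 comparisons). The gap was 2.78 ± 0.33 in pre-leukemic thymus, so tumors exceeded it by 1.01 (exact p = 0.0571, adjusted 0.0857) and pre-leukemic thymus exceeded wild type by 0.38 (exact p = 0.0857, adjusted 0.0857). None passed the adjusted threshold. Tumor against wild type was already at the smallest exact p, and could not pass unless another comparison reached it too. This miss therefore does not show that the genes changed equally. Without tumor replicate 4, the gaps against wild-type and pre-leukemic thymus were wider by 1.62 and 1.24, each with an adjusted exact permutation p of 0.0429. Tumor 4 has the highest Rag2 and the lowest Dntt of the tumors, so leaving it out had to widen the gap. In each of these comparisons the other 7 of 8 fits without 1 array kept an adjusted exact permutation p of 0.0857 or higher.

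**Figure D2:**
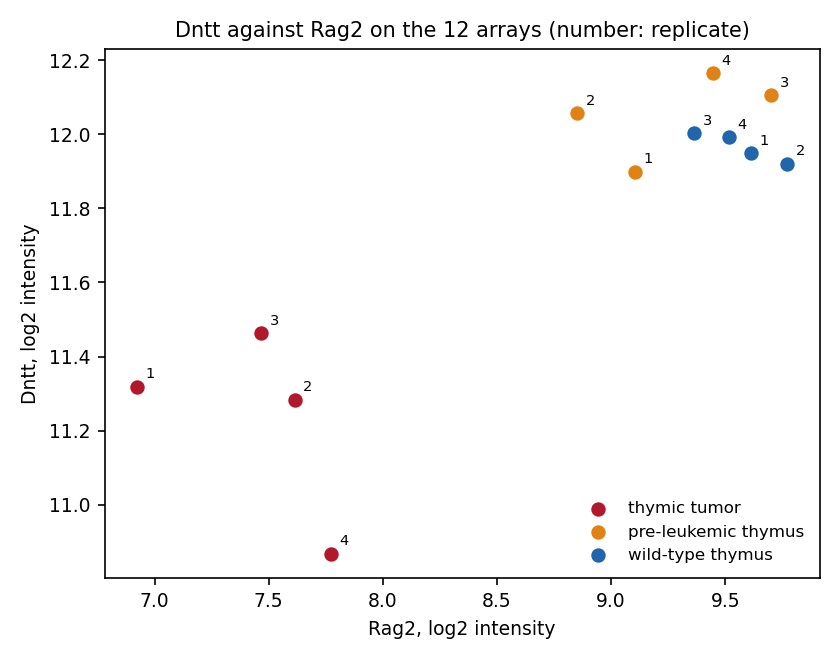
Dntt (vertical) against Rag2 (horizontal), both in log2 intensity, on the 12 arrays, coloured by group and numbered by replicate; neither axis starts at 0. The 4 tumors lie apart at the lower left, and among them tumor 4 has the highest Rag2 (7.77) with the lowest Dntt (10.87).

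Rag2 and Dntt shared the difference between groups more than the differences among pools of a group. Over the 12 arrays Pearson's r between them was 0.85, which describes mainly the tumors against the rest, and after group means were subtracted it was -0.22. Among 14810 genes compared over the 12 arrays, Dntt ranked 956 in likeness to Rag2.

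The genes whose levels were most like Rag2 over the 12 arrays were Zfp280d, Bcl2 and Havcr1, each at r = 0.99. Bcl2, an inhibitor of cell death, stood at 7.75, 7.999, 8.17 and 8.20 in tumors, 9.22, 8.99, 9.55 and 9.27 in pre-leukemic thymus and 9.60, 9.70, 9.35 and 9.52 in wild-type thymus. It was lowest in tumor 1 and, of the pre-leukemic pools, in replicate 2, as Rag2 was. In tumor against wild type Bcl2 differed by -1.51, Havcr1, a surface receptor of lymphocytes and kidney cells, by -1.49, and Zfp280d, a zinc finger gene, by -1.48. All 3 were called lower, but Havcr1 lay below the olfactory 95th percentile of 6.84 in every pool. With group means subtracted, Spred2 (r = 0.93), Zfp280d (0.92) and Bcl2 (0.92) came first. They were picked from 14810 genes by this same correlation, so the values do not show that they follow Rag2 from pool to pool. Spred2, an inhibitor of Ras signalling, differed by 0.02 between tumor and wild type and was not called.

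Dntt had other neighbours in this ranking. Tuft1 (r = 0.99), Yes1 (0.98), a Src-family kinase, and Pygb (0.98), a glycogen phosphorylase, came first over the 12 arrays. The same 3 genes came first with group means subtracted, Pygb at 0.97, Tuft1 at 0.93 and Yes1 at 0.92. Yes1 was 6.27, 6.13, 6.36 and 5.75 in tumors and 6.93 to 7.04 in wild-type thymus, and like Dntt it was lowest in tumor 4. Its tumor values lie below the olfactory 95th percentile of 6.84. Tuft1 differed by -0.82 and Yes1 by -0.87 between tumor and wild type, both called. Pygb differed by -0.17 and was not called. These likenesses rest on arrays that share tumor pools, and the genes were picked from 14810 by the same correlations. The likenesses were given no test.

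The stretch of genome just before each start site is shown for the letters that regulators of both genes can read. Among the motifs searched, only the GATA motif was present before Dntt and absent before Rag2. A part of these letters in the differences between groups was not tested. Both are RefSeq sequences of build GRCm38.p6, plus strand, 250 bases long and ending at the base before the start: Rag2 at chr2:101624462-101624711 and Dntt at chr19:41029025-41029274. Capitals mark matches to any of 7 short motifs.
Rag2: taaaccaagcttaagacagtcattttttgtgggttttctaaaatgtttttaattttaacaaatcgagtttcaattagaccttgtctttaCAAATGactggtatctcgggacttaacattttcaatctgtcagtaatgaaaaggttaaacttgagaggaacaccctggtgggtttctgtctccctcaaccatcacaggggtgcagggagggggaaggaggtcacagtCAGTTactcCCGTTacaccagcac
Dntt: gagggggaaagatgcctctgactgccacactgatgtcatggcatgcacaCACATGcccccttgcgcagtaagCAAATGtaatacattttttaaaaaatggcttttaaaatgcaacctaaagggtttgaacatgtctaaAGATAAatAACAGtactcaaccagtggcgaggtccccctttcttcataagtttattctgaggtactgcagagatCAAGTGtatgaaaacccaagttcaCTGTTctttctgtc

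Both stretches are poor in G and C, at 41.2% for Rag2 and 41.6% for Dntt, against a median of 52.4% over 32851 RefSeq promoters. Motifs were searched on both strands, and no matches overlapped. The E-box CANNTG, read by E proteins such as Tcf3 and Tcf12, matched once before Rag2, at position -161 from the start, and at 3 places before Dntt, at -201, -178 and -38. It is present in 66.2% of all promoters. The Myb motif AACNG matched at -24 and -15 before Rag2 and at -104 and -14 before Dntt, and is present in 74.2%. The GATA motif AGATAA matched only Dntt, at -112, and is present in 9.99%. No match was found in either stretch for the Ikaros motif TGGGAA (in 21.6% of promoters), Runx TGTGGT (14.0%), Foxo TGTTTAC (3.17%) or Tcf/Lef CTTTGA (13.8%). These are letter matches within the window and not measured binding.

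Factors known to act on Rag or Dntt transcription were measured through 21 of 24 listed genes, and in tumor against wild type 2 were called higher and 6 lower, against 16.2% of clusters called higher and 14.5% lower. The list's median was -0.12 and that of all clusters 0.07. The largest falls were in Bcl6, a repressor that marks double-positive thymocytes, at -1.996 ± 0.15, and Bach2, a repressor of effector genes in lymphocytes, at -1.45 ± 0.12 (SE). Bcl6 was 8.70, 8.21, 7.90 and 8.19 in tumors and 10.15 to 10.34 in wild-type thymus. Unlike Rag2, it was highest in tumor 1. Ikzf1, which encodes Ikaros, was 10.06, 9.94, 9.94 and 9.77 in tumors, 10.69, 10.65, 11.26 and 11.09 in pre-leukemic thymus and 11.25, 11.29, 11.18 and 11.08 in wild-type thymus. Ikzf1 differed by -1.27 in tumor against wild type, with no overlap. Satb1, a chromatin organizer needed for Rag expression in mouse thymocytes, differed by -0.97, Id3, an inhibitor of E proteins, by -1.21, and Elf1, an Ets-family activator of Dntt, by -0.52, all called lower.

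Lef1, an HMG-box factor of the T lineage, was 11.57 to 11.81 in tumors and 10.99 to 11.13 in wild-type thymus, a rise of 0.65, and Tcf3, the E protein that drives Rag transcription, rose by 0.35. Without tumor replicate 3, 4 regulators were called higher rather than 2. The other 13 measured regulators were not called. Against pre-leukemic thymus, where 7.74% of clusters were called higher and 8.27% lower, 1 regulator was called higher, Lef1 (0.65), and 5 lower, with Bcl6 at -1.78, Bach2 at -1.15, Ikzf1 at -0.996 and Satb1 at -0.82. In pre-leukemic against wild-type thymus limma called none of them, and 0 of 21 had an unadjusted p under 0.05. Those with the smallest p were Bach2 at -0.30 and Id2, another inhibitor of E proteins, at -0.31.

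The stage genes split. Of 12 measured double-positive genes, 11 were called lower in tumor against wild type and none higher, with a list median of -1.23. Among all clusters 14.5% were called lower and 16.2% higher. Ccr9, the receptor for a chemokine of the thymic epithelium, was 10.06, 9.18, 10.08 and 9.003 in tumors and 12.42 to 12.50 in wild-type thymus, and differed by -2.89. Slamf1, a surface receptor of lymphocytes, differed by -1.66, Cd4 by -1.58, Cd8a by -1.47, Cd8b1 by -1.02, Cd5, a brake on receptor signalling, by -1.56 and Bcl2l1, a survival gene of double-positive cells, by -1.43. The mean log2 intensity of the 12 genes was 10.09, 10.04, 9.78 and 9.61 in the tumors. It was 10.86, 10.83, 11.20 and 11.004 in pre-leukemic thymus and 11.18, 11.19, 11.09 and 11.11 in wild-type thymus. Between groups this mean ran the same way as Rag2. Among the tumors it did not, since tumor 1 had the highest double-positive mean and the lowest Rag2, and tumor 4 the lowest mean and the highest Rag2.

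Of 14 double-negative and pre-receptor genes, 7 were called higher and 4 lower in tumor against wild type, with a list median of 0.54. Among all clusters 16.2% were called higher and 14.5% lower. The rises were led by targets of Notch signalling, Nrarp (2.99) and Dtx1 (2.82), with Hes1 at 2.03. Il2ra, which encodes CD25 of late double-negative cells, was 12.25, 12.68, 12.51 and 12.17 in tumors and 10.53 to 10.80 in wild-type thymus, a difference of 1.72. Notch1 differed by 1.18. Ptcra, the partner chain of the pre-receptor, differed by 0.66 and was not called (limma adjusted p = 0.0674). The falls were led by genes of the earliest progenitors, Cd44 (-0.90) and Kit (-0.68). Kit stood at 6.09 to 6.69 in tumors, below the olfactory 95th percentile of 6.84. The count of falls ranged from 2 to 4 when single arrays were left out, and changed by over 1.5 times without any 1 of the wild-type arrays or without tumor replicate 1 or 4.

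Of 9 measured genes shared by all T cells, 1 was called higher, Zap70 at 0.21, and 5 lower. The shares over all clusters were 16.2% higher and 14.5% lower. The call of Zap70 was lost in 6 of 8 fits without 1 array, which left out each wild-type pool in turn and tumors 3 and 4. Ptprc, which encodes CD45, differed by -0.47 and Cd2, an adhesion receptor, by -0.56, while the CD3 chains Cd3e (0.09) and Cd3d (-0.03) and Thy1 (-0.08) were not called. Against pre-leukemic thymus 10 of 12 double-positive genes were called lower, led by Ccr9 at -2.70 and Bcl2l1 at -1.43. In that comparison 7 double-negative genes were called higher, led by Nrarp at 2.69 and Dtx1 at 2.53. The shares over all clusters were 7.74% higher and 8.27% lower. There 3 double-negative genes were called lower, with Kit at -0.72 and Cd44 at -0.67, and no T-lineage gene was called in either direction, although 1, Cd247 (-0.35), was called without tumor replicate 1. In pre-leukemic against wild-type thymus limma called no gene of these 3 lists, and an unadjusted p under 0.05 was reached by 3 of 12 double-positive, 3 of 14 double-negative and 1 of 9 T-lineage genes. All 12 double-positive genes had differences below 0 there, with a median of -0.19 against 0.04 over all clusters, and 12 of the 14 double-negative genes had differences above 0, with a median of 0.26. The smallest p in these lists belonged to Notch1 (0.49), Notch3 (0.34), Cd28 (-0.25), Tox (-0.29), Ptprc (-0.28) and Cd2 (-0.33).

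**Figure D3:**
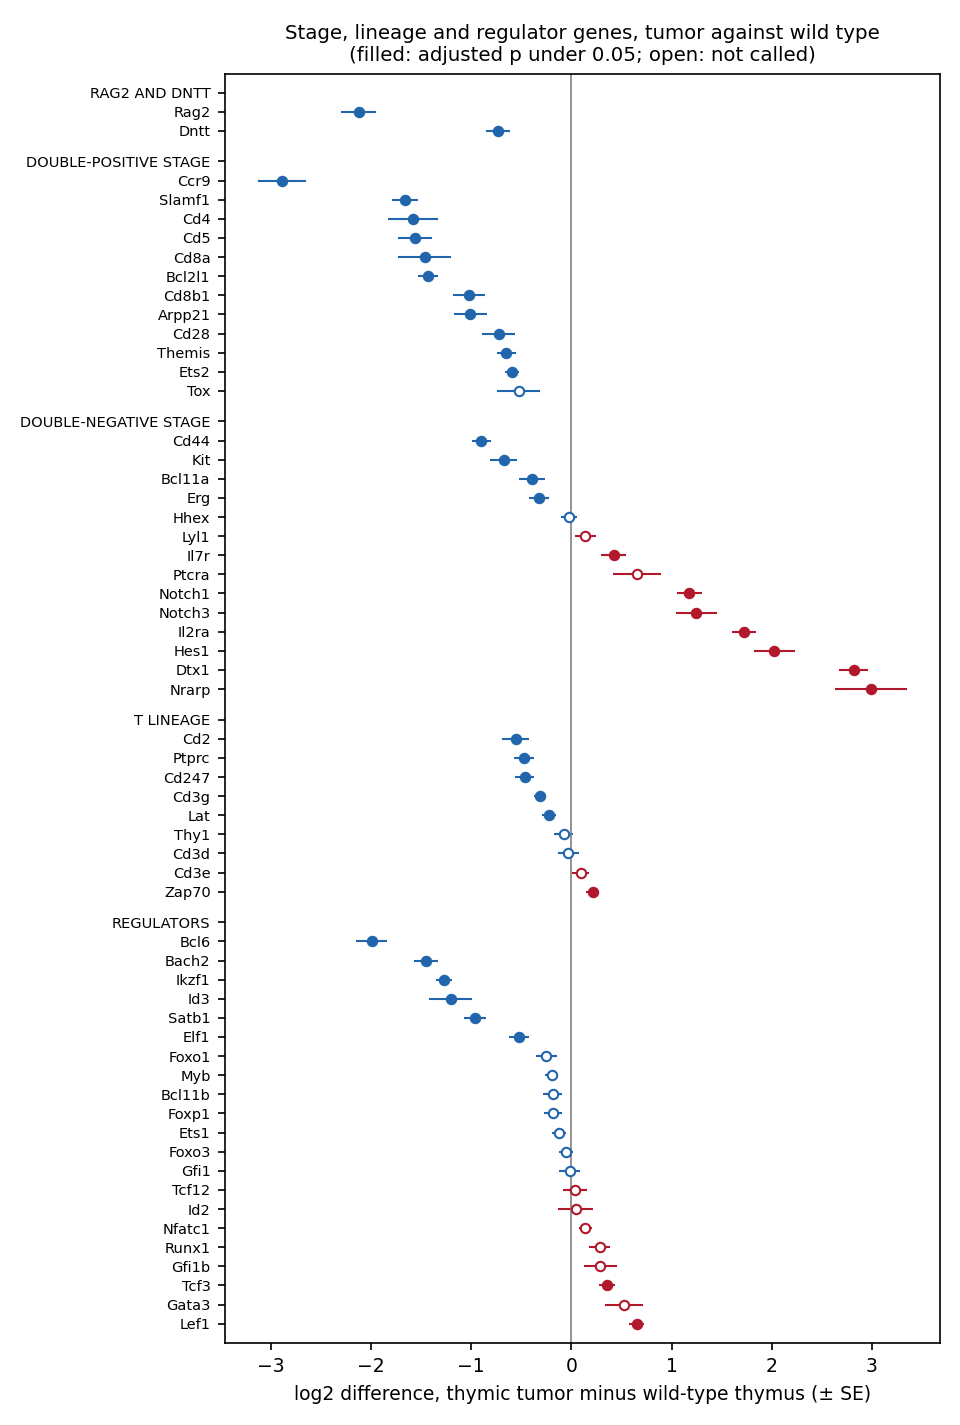
Log2 difference, thymic tumor minus wild-type thymus (horizontal, ± SE), for Rag2, Dntt and the measured genes of the double-positive, double-negative, T-lineage and regulator lists; filled points passed an adjusted p under 0.05 and open points did not, with red for differences above 0 and blue for differences below 0. Rag2 (-2.12) lies among the double-positive genes and beside Bcl6 (-1.996), and Dntt (-0.73) lies closer to 0.

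The end-joining genes, whose products seal the ends left by the recombinase, moved in both directions. In tumor against wild type, 4 of 8 measured were called higher and 2 lower, with a list median of 0.27. Among all clusters 16.2% were called higher and 14.5% lower. The Ku subunits, which bind the broken ends, were called higher: Xrcc6 was 11.03, 10.98, 10.90 and 11.01 in tumors and 10.19 to 10.22 in wild-type thymus, a difference of 0.78, and Xrcc5 differed by 0.73. The polymerases most closely related to terminal transferase were also higher, Poll by 0.55 and Polm by 0.30. Poll was 6.99, 7.01, 7.20 and 6.98 in tumors and 6.32 to 6.70 in wild-type thymus. Those wild-type values lie below the olfactory 95th percentile of 6.84. Polm was 7.44 to 7.50 in tumors and 7.04 to 7.28 in wild-type thymus. Xrcc4, the scaffold of the ligase, was called lower at -0.43 and Paxx, an accessory factor of Ku, at -0.35. The kinase gene Prkdc (0.23) and the ligase gene Lig4 (-0.33) were not called in the main fit. Lig4 was called with quantile normalization, a pseudocount of 16, a mean log2 of at least 6, limma's trend or array weights. It was also called without tumor replicate 1. Prkdc was called with T-lineage scaling and without tumor replicate 3. Against pre-leukemic thymus 3 were called higher and 1 lower: Xrcc6 (0.78), Xrcc5 (0.72) and Poll (0.44) rose and Paxx (-0.37) fell. Among all clusters 7.74% were called higher and 8.27% lower there. The calls of Poll and Paxx were lost in 7 and 5 of 8 fits without 1 array. Among these were the fits without pre-leukemic replicate 1, 3 or 4 and tumor replicate 2 or 3.

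Of 9 genes of the response to double-strand breaks, 4 were called higher and none lower in tumor against wild type, with a list median of 0.23. Among all clusters 16.2% were called higher and 14.5% lower. The 4 genes were Atm (0.40), the kinase that senses breaks, Rad50 (0.37) and Mre11a (0.33) of the complex that holds broken ends, and the ubiquitin ligase Rnf168 (0.25). The call of Rnf168 was lost in 6 of 8 fits without 1 array, which left out each wild-type pool in turn and tumors 1 and 4. Mre11a lost its call without wild-type replicate 2 and Rad50 without wild-type replicate 4. The count over the list ranged from 2 to 5, and was lower by over 1.5 times without wild-type replicate 2 or replicate 4. Against pre-leukemic thymus 2 were called higher, Mre11a and Atm at 0.45 each, where 7.74% of all clusters were called higher. The count ranged from 0 to 2 without single arrays, lower without pre-leukemic replicate 1 or 2 or tumor replicate 1, 2 or 4.

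Proteins that bind the recombinase or terminal transferase were measured through 10 genes, of which 3 were called higher and 1 lower in tumor against wild type, with a list median of 0.16. Over all clusters 16.2% were called higher and 14.5% lower, so these counts are not far from the background and are no result about the list. Skp2, whose ubiquitin ligase degrades Rag2 protein when cells enter S phase, was 0.38 higher, and Ccna2, the cyclin of that phase, differed by -0.23, a call lost in 4 of 8 fits without 1 array (wild-type replicate 1, 2 or 4 or tumor replicate 4). Ddb1, part of a ubiquitin ligase that binds Rag1 protein, was 0.47 higher, and Dnttip1, named for its binding of terminal transferase, was 0.29 higher. Against pre-leukemic thymus Ddb1 alone was called (0.32), and that call was lost in 5 of 8 fits without 1 array (pre-leukemic replicate 1 or 3 or tumor replicate 1, 3 or 4). Scaled to the T-lineage genes, 9 of 9 break-response genes, 7 of 10 partner genes and 5 of 8 end-joining genes were called higher in tumor against wild type, where 46.9% of all clusters were called higher on that scale. In pre-leukemic against wild-type thymus limma called no gene of these 3 lists, and 2 partner genes alone had an unadjusted p under 0.05. The medians were 0.00 for end joining, -0.04 for the break response and 0.00 for the partner proteins. The genes with the smallest p there were Xrcc4 (-0.15) and Polm (0.07), Mre11a (-0.12) and Nbn (0.07), and Skp2 (0.20) and Ddb1 (0.14).

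**Figure D4:**
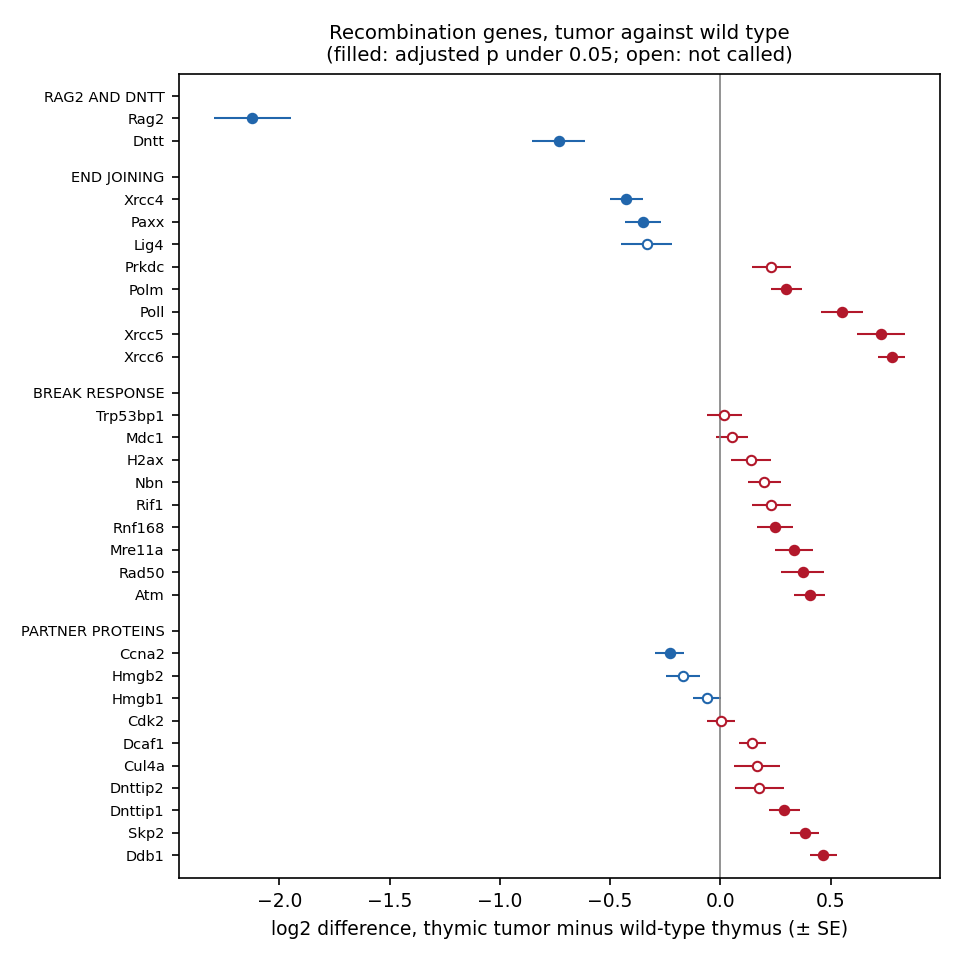
Log2 difference, thymic tumor minus wild-type thymus (horizontal, ± SE), for Rag2, Dntt and the measured genes of end joining, the break response and the partner proteins; filled points passed an adjusted p under 0.05 and open points did not, with red above 0 and blue below 0. Rag2 and Dntt lie furthest to the left, and the Ku genes Xrcc6 (0.78) and Xrcc5 (0.73) furthest to the right.

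Genes beside Rag2 and Dntt on the chromosome differed by smaller amounts. Of the 2 nearest measured genes on each side of the Rag pair on chromosome 2, Api5, an inhibitor of cell death, was called higher in tumor against wild type (0.44, limma adjusted p = 0.00718). Prr5l was called lower at -0.26 (limma adjusted p = 0.0455), a call lost in 7 of 8 fits without 1 array, and Traf6 (-0.03) and Lrrc4c (-0.12) were not called. Beside Dntt on chromosome 19, Blnk, an adaptor of B-cell receptor signalling, was called lower at -0.36 (limma adjusted p = 0.00206). Ccnj (-0.11), Opalin (0.22) and Tll2 (0.23) were not called. Lrrc4c, Prr5l, Opalin and Tll2 had group means of 3.60 to 6.13, below the olfactory 95th percentile of 6.84. Their small differences therefore say little about the loci.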

How the data were processed

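RNA of 12 pools was read on 1 array each. The authors deposited normalized intensity values on a linear scale for 17829 transcript clusters, and the normalization is not given in the sources used here. Values ran from 6.17 to 24310. They were log2-transformed with no pseudocount. Other matrices, whose 24 columns carry names found in no sample's labels, were not used. Arrays have no read depth, and their number limits the precision. Symbols came from the platform annotation, which gives 15618 clusters 1 symbol, 1370 several and 841 none.

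Each comparison was fitted on its 8 arrays with limma 3.58.1 in R 4.3.3, two-sided, with Benjamini-Hochberg adjustment over all clusters and a threshold of 0.05. Figures and permutation tests used Python 3.11.15 and scipy 1.17.1. The limma test was tried on simulated data first. The genes, lists and tests were chosen with earlier results of these data known. The rule for named genes takes Rag1, Rag2, Dntt, Mcm4, the 2 called genes with the largest rise and fall per list (or the 2 smallest p), the 3 nearest by correlation and the 2 nearest on each chromosome side. Other list genes were chosen after their values were seen. Tests involving Rag1 were not run. Alternatives were quantile normalization, a pseudocount of 16, a mean log2 of at least 6, limma's trend, array weights, 1 fit over 12 arrays, T-lineage scaling, the posterior limit, a replicate block and leaving out arrays. Same-numbered arrays of different groups correlated at -0.55 to 0.42 over 12 pairs, so the numbers were not taken as pairs.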

Additional observations from a re-analysis of the deposited data

Results flagged for a closer look

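In 150 groups of 4 arrays (50 named genes in 3 groups), 5 held an array far from the other 3, where chance gives about 1 group in 20. Cd28, a co-receptor of T cells, was lowest in tumor 4 at 9.34, with the other tumors at 10.02 to 10.13. Id2 was highest in pre-leukemic replicate 3 at 10.88, with the others at 10.18 to 10.29. Pygb was lowest in pre-leukemic replicate 1 at 9.41, with the others at 9.505 to 9.52. Prr5l was lowest in wild-type replicate 1 at 5.87, with the others at 5.97 to 5.98. Traf6 was lowest in wild-type replicate 4 at 10.15, with the others at 10.16. Neither Rag2 nor Dntt had such an array in any group.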

How the results depend on the processing

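Rag2 was called lower in both tumor comparisons under every alternative. Without 1 array it ran from -2.23 to -1.95 against wild type and -1.97 to -1.66 against pre-leukemic thymus, and Dntt from -0.81 to -0.61 and -0.90 to -0.70. Dntt missed the posterior limit against wild type (-0.73) and against pre-leukemic thymus (-0.82). Against pre-leukemic thymus it also missed the adjusted p without the 4 arrays of narrowest range (-1.04), where fewer arrays were fitted. In pre-leukemic against wild-type thymus Rag2 ran from -0.43 to -0.15 and Dntt from 0.05 to 0.14 without 1 array. Rag2 turned to 0.0074 without the narrow arrays, here the 2 pre-leukemic pools with the lowest Rag2. Dntt minus Rag2 ran from 1.19 to 1.62 for tumor against wild type, 0.81 to 1.24 for tumor against pre-leukemic and 0.24 to 0.51 for pre-leukemic against wild type.

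Clusters called in tumor against wild type numbered 4177 to 5545 without 1 array, 886 with the posterior limit and 9938 with T-lineage scaling, of which 84.2% were higher, against 52.6% as deposited. In tumor against pre-leukemic they numbered 1728 (without pre-leukemic replicate 1) and 1856 (without tumor replicate 4) to 2606 without 1 array, 4290 in 1 fit over 12 arrays, 364 with the posterior limit and 853 without the narrow arrays, and T-lineage scaling made 66.2% of calls higher, against 48.3%. In pre-leukemic against wild type they numbered 0 to 1, with 1 cluster called without pre-leukemic replicate 3. The cause of these shifts was not tested.

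The replicate number as a block left Rag2 at -2.12 and Dntt at -0.73 against wild type (limma adjusted p 6.33e-04 and 0.00765) and -1.83 and -0.82 against pre-leukemic thymus (0.00238 and 0.0152), with 4210 and 2063 clusters called, and 0 in pre-leukemic against wild type. Dntt minus Rag2 cannot pass a paired exact test with 4 pairs.

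Of 48 named calls in tumor against wild type, 29 were lost with the posterior limit, 10 with the block and 4 with T-lineage scaling. Of 20 in tumor against pre-leukemic, 15 were lost with the posterior limit and 11 without the narrow arrays. The posterior limit rests on limma's preset share of changed clusters, and the fit without the narrow arrays on fewer arrays. With the posterior limit 5 double-positive genes, 4 regulators and 1 double-negative gene stayed lower in tumor against wild type, and 5 double-negative, 1 end-joining and 1 regulator gene higher. Uncalled genes changed sign under T-lineage scaling (Ccnj 0.090, Cd3d 0.17, Lrrc4c 0.088, Pygb 0.037, Thy1 0.13, Traf6 0.17), without the narrow arrays (Thy1 0.054, Traf6 0.074, Xrcc4 0.010 in pre-leukemic against wild type) and without 1 array (Cd3d from -0.075 to 0.076, Spred2 from -0.018 to 0.064, Traf6 from -0.098 to 0.013). No second cluster of Rag2 or Dntt gave a value, and the results planned for Rag1 were not run.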
